A study of Homo sapiens with 36 samples.

Results

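The 9 genes described here are the ID genes ID1, ID2, ID3 and ID4 together with SMAD6, SMAD7, SMAD9, BMP4 and BAMBI of the BMP pathway, 9 of 17958 genes measured on 36 arrays. They were chosen by name, with measured values of these data in view: an early increase of ID genes under a MEK inhibitor. The values at 4 h of inhibitor are therefore given as a description, with no test. Each gene was measured by 1 probe whose annotation held a single gene symbol.

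The samples were RNA from 3 human breast cancer cell lines lacking hormone receptors, MDA231, SUM159PT and BT549, hybridised to Affymetrix arrays. Values are log2 RMA levels of a probe, compared for the same probe between groups and not between genes. Each line had 4 groups of 3 arrays. In the siCONTROL group cells carried 10 nM of a non-targeting siRNA pool and DMSO. In the siDUSP4 group they carried 10 nM of siRNA against DUSP4, a nuclear phosphatase that switches off ERK, with DMSO. In the 2 selumetinib groups cells carried the control siRNA and received AZD6244 (selumetinib), which blocks MEK, the kinase that activates ERK, at 1 uM; exposure lasted 4 h in one group and 24 h in the other, up to harvest. Every group was harvested 96 h after transfection, so the cells of all 12 groups had received an siRNA. The lines were grown in different media, with less serum and added hydrocortisone for SUM159PT, so line and medium cannot be told apart. The labels do not say whether the 3 arrays of a group came from separate cultures, and p-values measure only the spread between them. For 24 arrays the title and another label disagree on whether the line was SUM159PT or BT549. Titles were followed, and every statement on these lines rests on them. In the siCONTROL arrays titled BT549 the probe of RB1, a gene that BT549 is known to have lost, was at 6.83 ± 0.16 (SD, n = 3), against 9.40 ± 0.01 in those titled SUM159PT.

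BMP ligands bind pairs of receptor kinases at the cell surface, which phosphorylate SMAD1, SMAD5 and SMAD9. These join SMAD4, enter the nucleus and switch on target genes, among which the ID genes are the best known in most tissues. ID proteins have a helix-loop-helix region but no DNA-binding region, so they pair with E proteins such as TCF3 and keep them off DNA, which holds back differentiation. SMAD6, SMAD7 and BAMBI are induced by the pathway and restrain it. ERK and BMP signalling are known to meet on SMAD1, which ERK can phosphorylate at sites away from those used by the receptors.

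The promoters of ID1, ID2, ID3 and BAMBI are shown because these genes rose in MDA231 at 24 h of the inhibitor, as described further on; ID4 and BMP4, which also rose there, are left out for space. Each stretch is the 250 bases before a RefSeq start of the gene, on the gene's own strand, in GRCh38.p14. All 9 genes were matched to the RefSeq promoter table. BMP4 and SMAD7 had 3 entries each, of which the first was used. The stretches used for BMP4 and SMAD9 lie inside the annotated bounds of the gene. Capitals mark GGCGCC, a GC-rich sequence bound by BMP-activated SMADs, or the TATA box TATAAA, on either strand.

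ID1 (chr20:31605039-31605288, plus strand): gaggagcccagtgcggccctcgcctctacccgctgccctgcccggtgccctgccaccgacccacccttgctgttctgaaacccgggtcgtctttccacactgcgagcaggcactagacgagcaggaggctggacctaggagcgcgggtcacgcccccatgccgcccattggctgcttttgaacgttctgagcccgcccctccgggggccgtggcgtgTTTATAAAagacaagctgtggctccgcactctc

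ID2 (chr2:8681806-8682055, plus strand): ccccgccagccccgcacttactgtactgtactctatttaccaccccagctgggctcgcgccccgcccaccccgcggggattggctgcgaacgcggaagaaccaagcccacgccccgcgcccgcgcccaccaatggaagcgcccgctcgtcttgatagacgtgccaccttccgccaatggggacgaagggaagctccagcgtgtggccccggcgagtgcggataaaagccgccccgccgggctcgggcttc

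ID3 (chr1:23559502-23559751, minus strand): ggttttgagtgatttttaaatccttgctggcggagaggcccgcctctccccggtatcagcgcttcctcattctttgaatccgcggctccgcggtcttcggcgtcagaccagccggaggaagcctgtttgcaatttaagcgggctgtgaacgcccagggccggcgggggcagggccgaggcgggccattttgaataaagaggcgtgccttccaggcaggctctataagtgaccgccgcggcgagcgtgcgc

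BAMBI (chr10:28677271-28677520, plus strand): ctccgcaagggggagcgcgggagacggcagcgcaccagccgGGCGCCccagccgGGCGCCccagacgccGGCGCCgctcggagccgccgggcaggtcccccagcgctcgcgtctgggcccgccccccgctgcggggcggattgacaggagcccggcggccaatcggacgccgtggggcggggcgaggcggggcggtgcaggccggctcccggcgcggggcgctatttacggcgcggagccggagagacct

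The BAMBI stretch held GGCGCC at 3 places, starting at positions -209, -196 and -181 from the start of the gene, and the BMP4 stretch held it once. It was in the stretches of 2 of the 9 genes, and in 16.1% of 27305 promoters of the same length. The ID1 stretch held TATAAA at position -31, overlapping a match on the other strand. Those 6 letters were in 2 of the 9 stretches, ID1 and ID4, and in 11.1% of all promoters. The E-box CANNTG, the sequence that E proteins bind, was in 4 of the 9 stretches, those of ID2, ID4, SMAD7 and SMAD9, and in 62.2% of all promoters. The CRE TGACGTCA, the AP-1 site TGANTCA and the ETS site CCGGAAGT were in none of the 9, against 1.77%, 6.6% and 3.64% of all promoters. A match is a string of letters and not a shown binding site.

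The targets of both treatments were checked first. After siDUSP4 the DUSP4 probe was at 18.7% of siCONTROL in MDA231, 27.9% in SUM159PT and 21.1% in BT549. DUSP6, a phosphatase gene transcribed under ERK, fell at 4 h to 4.33%, 13.3% and 32.9% of siCONTROL in the same order of lines, and it was at 11.2%, 20.6% and 51.5% at 24 h. Its SUM159PT mean at 4 h, 4.95, was low. DUSP4 was at 19.6%, 39.3% and 63.1% of siCONTROL at 4 h of selumetinib, with an adjusted p of 0.062 in BT549 (limma). It was lower at 24 h as well, at 41.8%, 55.4% and 60.6%. After siDUSP4 no clear change of DUSP6 was seen, with log2 differences of -0.22, 0.04 and -0.06 in the same order of lines (adjusted p of 0.6, 0.97 and 0.9, limma). All 4 epithelial and mesenchymal markers of such lines were above the median probe level of 5.33 in every line, and ESR1 and PGR were below it. ERBB2, the HER2 gene listed with them, was above that level, with siCONTROL means of 7.32 in MDA231, 7.77 in SUM159PT and 7.32 in BT549. Of 6 blood and endothelial markers measured, 1 had a mean above it in MDA231, 3 in SUM159PT and 0 in BT549, the highest means being 6.67, 7.08 and 4.95, and their part in the results was not tested. Array medians lay between 5.12 and 5.40. The upper quartile of the probes was lowest on 3 arrays, replicates B and C of MDA231 at 4 h (7.48 and 7.66) and replicate A of BT549 at 24 h (7.5). For changes of the 9 genes that are described in the text, the value without those 3 arrays is given where it moved by over 1.5 times or changed a call. The SUM159PT arrays at 4 h came next and were kept. Their upper quartiles were 7.7, 7.76 and 7.81, against 7.9, 7.91 and 7.95 in siCONTROL of that line.

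Without treatment the 9 genes differed widely between lines (the plots of values by array). ID2 was at 4.04, 4.08 and 4.34 in the siCONTROL arrays of MDA231, at 6.11, 6.14 and 6.09 in SUM159PT, and at 8.03, 7.69 and 7.82 in BT549. In RNA of whole cultures, fewer cells that express a gene and less RNA per cell cannot be told apart. The ID2 signal of MDA231 was thus below the median probe level and that of BT549 far above it (log2 difference -3.69, SE 0.21, limma adjusted p = 1.8e-16). No fold is given against a signal that low. ID3 followed the same order of lines, with means of 6.01 ± 0.09, 7.37 ± 0.08 and 9.31 ± 0.19 (SD, n = 3 each). ID1 had the opposite extreme: it was highest in MDA231, at 10.13 ± 0.18, and lowest in SUM159PT, at 8.86 ± 0.02.

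BMP4, the ligand of the set, was at 9.72, 9.51 and 9.22 in the siCONTROL arrays of MDA231, and its means were 6.33 ± 0.12 in SUM159PT and 7.00 ± 0.06 in BT549. MDA231 exceeded SUM159PT 8.91-fold (adjusted p = 6.6e-18, limma). BAMBI, a receptor-like protein with no kinase domain that blocks BMP and TGF-beta receptors, had means of 6.90 ± 0.06 in MDA231, 5.40 ± 0.09 in SUM159PT and 8.23 ± 0.14 in BT549. SMAD6 was highest in SUM159PT, at 5.95 ± 0.06, against 4.99 ± 0.20 in MDA231 and 5.02 ± 0.04 in BT549. Of the 9 genes, 8 differed between MDA231 and SUM159PT at an adjusted p under 0.05, 8 between MDA231 and BT549, and 9 between SUM159PT and BT549. A gene is named as called where limma's p, adjusted by Benjamini-Hochberg over all 17958 genes, was under 0.05. The shares of all genes called in those comparisons were 44.8%, 48.1% and 50.2%. SMAD7 was not called between MDA231 and SUM159PT (log2 difference -0.37, SE 0.16, adjusted p = 0.061), and SMAD6 was not called between MDA231 and BT549 (-0.03, SE 0.12, adjusted p = 0.89).

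**Figure D1:**
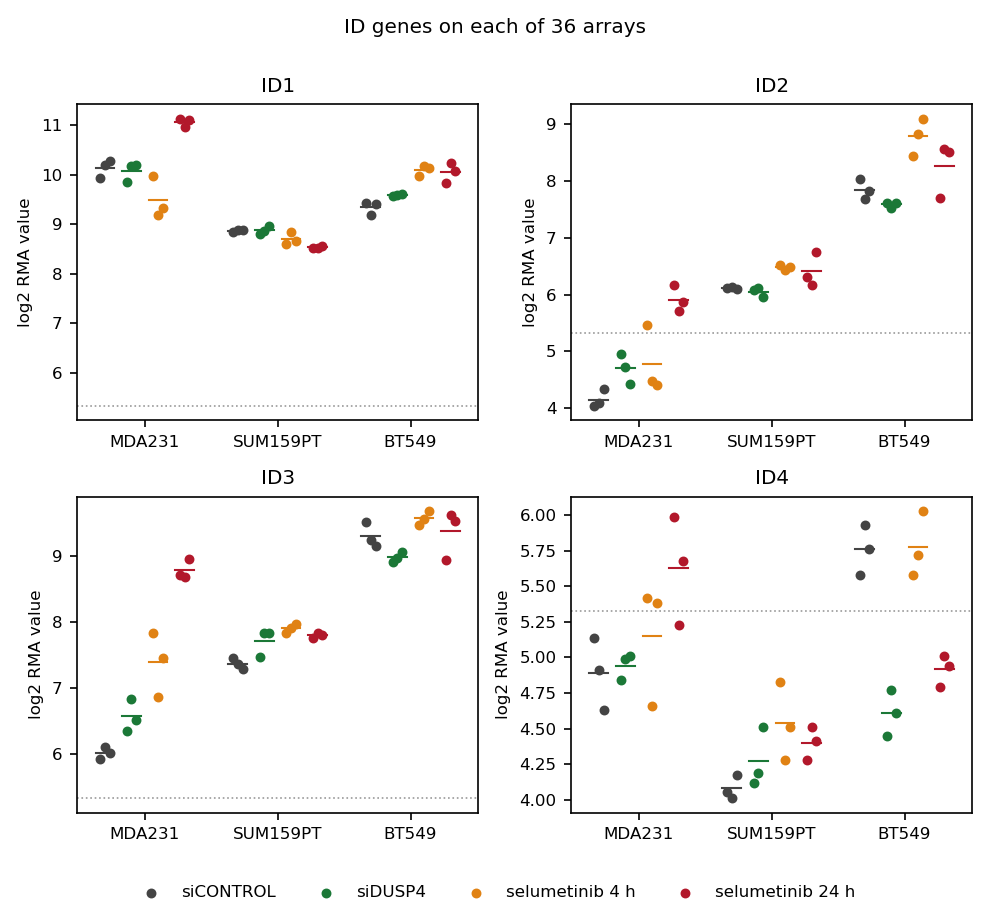
log2 RMA values of ID1, ID2, ID3 and ID4 on each array, grouped by line and coloured by treatment; each point is 1 of 3 arrays, the short bar is the group mean and the dotted line is the median probe level of 5.33. ID3 of MDA231 climbs from a siCONTROL mean of 6.01 to 8.79 at 24 h of selumetinib, while the 4 SUM159PT groups lie between 7.37 and 7.91.

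At 4 h of selumetinib ID2 was the member that lay above siCONTROL in every line with no overlap of arrays. Its arrays were at 5.46, 4.47 and 4.40 in MDA231, at 6.52, 6.44 and 6.48 in SUM159PT, and at 8.45, 8.83 and 9.10 in BT549. The log2 differences from siCONTROL were 0.62, 0.37 and 0.95 (SE 0.21 each). Replicate A of MDA231 stood about a log2 unit above B and C, which were close to the highest siCONTROL array, at 4.34. Without the low-quartile arrays B and C the MDA231 difference was 1.31, and without replicate A it was 0.28.

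ID3 was at 7.84, 6.87 and 7.45 in MDA231 at 4 h, against 5.92, 6.11 and 6.01 in siCONTROL, a log2 difference of 1.37 (SE 0.17). In SUM159PT its arrays were at 7.84, 7.91 and 7.98, against 7.45, 7.36 and 7.29, a difference of 0.54. The groups did not overlap in either line. In BT549, where siCONTROL was already high, ID3 was at 9.48, 9.57 and 9.69 against 9.52, 9.25 and 9.16, and the groups overlapped. Leaving out the low-quartile arrays gave 1.82 for ID3 in MDA231.

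ID1 did not follow ID2 and ID3 at 4 h. In BT549 it was at 9.98, 10.17 and 10.13, above all siCONTROL arrays at 9.42, 9.19 and 9.41, a log2 difference of 0.76 (SE 0.14). In MDA231 it was at 9.98, 9.18 and 9.33 against 9.93, 10.20 and 10.27, a difference of -0.64 that became -0.16 without replicates B and C. In SUM159PT the difference was -0.17. ID4, near or below the median probe level in most groups, lay above siCONTROL without overlap in SUM159PT only, at 4.83, 4.28 and 4.51 against 4.05, 4.01 and 4.17. An early increase of ID genes thus described ID2 in 3 lines, ID3 in 2, ID1 in BT549 and ID4 in SUM159PT.

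Of the remaining genes at 4 h, SMAD7, which blocks the receptors of BMP and TGF-beta, lay below siCONTROL in all 3 lines, by -0.39 in MDA231, -0.29 in SUM159PT and -0.63 in BT549 (SE 0.16 each). Its BT549 arrays were at 6.36, 6.20 and 5.85, against 6.81, 6.71 and 6.78, and the groups overlapped in MDA231 only, where replicate C alone was low, at 4.48. Without replicates B and C the MDA231 difference was -0.11. The BMP4 mean differed by -0.38, -0.25 and -0.33 in the 3 lines, with the arrays apart only in BT549. In MDA231 this became -0.03 without replicates B and C and -0.17 after a further quantile normalization of the arrays, and in BT549 it became -0.12 without replicate C. BAMBI was higher without overlap in MDA231 (0.65, SE 0.21) and BT549 (0.44) and not in SUM159PT (-0.12), and the MDA231 difference was 1.01 without replicates B and C. ID4 of MDA231 went from 0.26 to 0.53 and SMAD9 from -0.30 to 0.04 without them. SMAD6 and SMAD9 differed by at most 0.34 in either direction. Counted over the 9 genes, arrays lay wholly above siCONTROL for 3 genes in MDA231, 3 in SUM159PT and 4 in BT549, where 2.22%, 15.1% and 7.38% of all genes did. They lay wholly below it for 0, 3 and 2 genes, where 12.6%, 23.3% and 11.7% of all genes did.

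**Figure D2:**
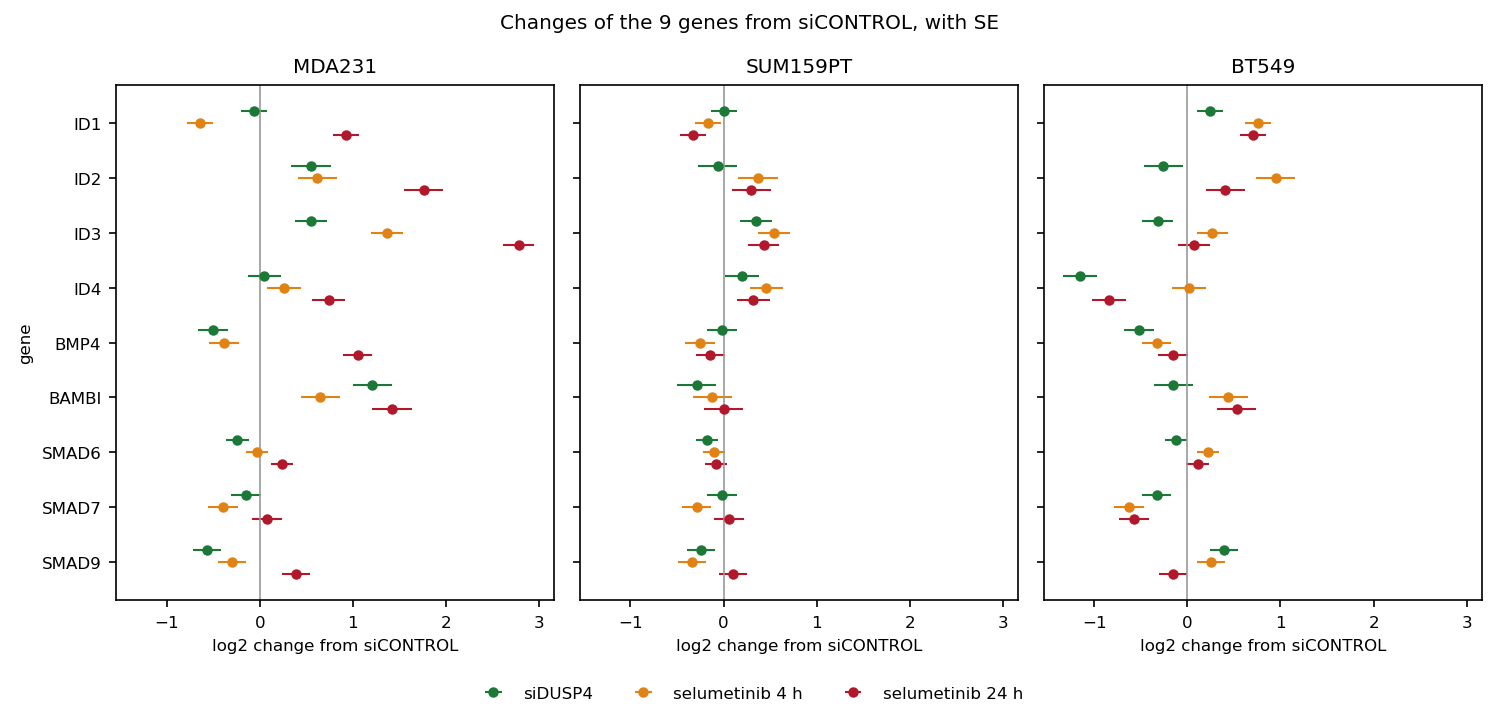
log2 change from siCONTROL of each of the 9 genes in each line, by treatment; points are differences of means of 3 arrays and bars are 1 SE from the model of 36 arrays. MDA231 at 24 h of selumetinib holds the points farthest to the right, with ID3 at 2.78 and ID2 at 1.76, and the SUM159PT points lie between -0.34 and 0.54.

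At 24 h all 4 ID genes, BMP4 and BAMBI rose in MDA231. The siCONTROL arrays are those of the 4 h differences that were in view when the genes were chosen. The tests and counts at 24 h are thus not independent of that choice. ID3 was at 8.72, 8.69 and 8.96, against 5.92, 6.11 and 6.01 in siCONTROL, with a gap of over 2 log2 units between the groups. The change was 2.78 (SE 0.17), or 685% of siCONTROL, with an adjusted p of 3.9e-14 in limma over all genes. ID2 was at 6.16, 5.71 and 5.87, against 4.04, 4.08 and 4.34, so it passed from below to above the median probe level. The change was 1.76 (SE 0.21, adjusted p = 1.1e-07, limma), with no percentage given because the siCONTROL signal is low. ID1, lower in mean at 4 h, was at 11.13, 10.96 and 11.10, above every siCONTROL array of 9.93, 10.20 and 10.27 (change 0.93, SE 0.14, adjusted p = 5.1e-06, limma). ID4 was at 5.99, 5.23 and 5.68, against 5.14, 4.91 and 4.63 (0.74, SE 0.18, adjusted p = 0.0024, limma). The ID4 signal is low, and the lowest 24 h array was close to the highest siCONTROL array.

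BMP4 of MDA231 was at 10.45, 10.49 and 10.68 at 24 h, against 9.72, 9.51 and 9.22, or 208% of siCONTROL (change 1.05, SE 0.16, adjusted p = 6.1e-06, limma). The 24 h mean stood 1.43 above the 4 h mean, and 1.09 above it without 4 h replicates B and C. BAMBI was at 8.35, 8.13 and 8.48, against 6.83, 6.95 and 6.91, or 268% of siCONTROL (1.42, SE 0.21, adjusted p = 4.2e-06, limma). SMAD9, a receptor-activated SMAD that is itself induced by BMP, had a change of 0.39 (SE 0.15, adjusted p = 0.078), and its call changed with scaling: it was called at 0.44 after a further quantile normalization of the arrays (adjusted p = 0.0051), and at 0.39 without the 3 low-quartile arrays (adjusted p = 0.02). The changes of SMAD6 and SMAD7, 0.24 and 0.08, were not called. In all, 6 of the 9 genes were called in MDA231, all higher, where 17.7% of all genes were called and 7.36% were called higher. The median change of the 9 genes was 0.93, and that of all genes 0.02.

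From 4 h to 24 h in MDA231 the means of all 4 ID genes went up, ID1 by 1.57, ID2 by 1.14, ID3 by 1.40 and ID4 by 0.48, while DUSP6 regained 1.37 log2 units of its 4 h loss. Against 4 h replicate A alone, with B and C left out, these differences were 1.09, 0.45, 0.95 and 0.21, and that of DUSP6 was 0.85. In BT549 the 24 h mean lay below the 4 h mean for ID2 (-0.53), ID3 (-0.20) and ID4 (-0.86) and close to it for ID1 (-0.05). Without the low-quartile 24 h replicate A the 4 values were -0.26, 0.01, -0.80 and 0.06. In SUM159PT it lay below for all 4 ID genes, by -0.17, -0.07, -0.11 and -0.14. These differences use the 4 h arrays and were not tested.

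In BT549 at 24 h ID1 rose, and ID4 and SMAD7 fell. ID1 was at 9.82, 10.24 and 10.08, against 9.42, 9.19 and 9.41 (change 0.71, SE 0.14, adjusted p = 0.0016, limma). ID4 was at 4.79, 5.01 and 4.94, below all siCONTROL arrays of 5.58, 5.93 and 5.76 (-0.84, SE 0.18, adjusted p = 0.0032, limma), the opposite direction from MDA231. SMAD7 was at 5.88, 6.39 and 6.32, against 6.81, 6.71 and 6.78 (-0.57, SE 0.16, adjusted p = 0.018, limma). The SMAD7 call did not hold after the further quantile normalization (-0.35, adjusted p = 0.16), nor with the median over genes set equal on all arrays (-0.31, adjusted p = 0.12), nor without siCONTROL replicate B (adjusted p = 0.061) or C (0.052), nor without 24 h replicate A (-0.41, adjusted p = 0.16), although it did with all 3 low-quartile arrays left out (adjusted p = 0.03). On the arrays of the 2 groups alone none of the 3 was called, with adjusted p-values of 0.13 for ID1, 0.071 for ID4 and 0.19 for SMAD7. The 3 genes called were 3 of 9, where 15.1% of all genes were called.

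ID2 of BT549 at 24 h was at 7.71, 8.56 and 8.51, against 8.03, 7.69 and 7.82 (0.41, SE 0.21, adjusted p = 0.17), and BAMBI at 8.18, 9.11 and 8.99, against 8.32, 8.07 and 8.29 (0.53, SE 0.21, adjusted p = 0.077, limma). In both, replicate A was within the range of siCONTROL and replicates B and C above it. Replicate A is the array of low upper quartile. With the 3 low-quartile arrays left out, ID2 was called at 0.69 (adjusted p = 0.012) and BAMBI at 0.82 (adjusted p = 0.01), and the count in BT549 was 5, where 8.93% of all genes were called. ID3, with an early difference in the other lines, had a 24 h change of 0.07 in BT549 (SE 0.17, adjusted p = 0.82), and of 0.28 without those arrays (adjusted p = 0.15).

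None of the 9 genes was called in SUM159PT at 24 h, where 4.28% of all genes were. At an unadjusted p under 0.05 in limma there were 2, ID1 and ID3, where 16.4% of all genes had one. ID1 was at 8.51, 8.51 and 8.56, below all siCONTROL arrays of 8.84, 8.88 and 8.87 (-0.33, SE 0.14, adjusted p = 0.2). ID3 was at 7.76, 7.84 and 7.80, above 7.45, 7.36 and 7.29 (0.43, SE 0.17, adjusted p = 0.16). The SUM159PT arrays were close to each other, and fitted on the arrays of that line alone both were called, with adjusted p-values of 0.015 for ID1 and 0.014 for ID3, as they were without the 3 low-quartile arrays of the other lines (0.022 and 0.011). ID2 (0.30), ID4 (0.32) and SMAD7 (0.06) also had all 24 h arrays above all siCONTROL arrays. BMP4 (-0.14) and BAMBI (0.00) overlapped siCONTROL.

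The 24 h response differed between lines for 6 of the 9 genes by limma's F test of the line differences, where 9.91% of all genes were called. ID3 changed by 2.71 more in MDA231 than in BT549 (SE 0.24, adjusted p = 8.1e-10) and by 2.35 more than in SUM159PT (adjusted p = 2.2e-08). BMP4 differed by 1.20 between MDA231 and each other line (adjusted p of 0.00049 against SUM159PT and 0.00042 against BT549). The ID1 change in SUM159PT, -0.33, was lower than that in MDA231, 0.93 (adjusted p of the difference = 3.7e-05), and that in BT549, 0.71 (0.0025). It was not called as different between MDA231 and BT549 (0.22, SE 0.19, adjusted p = 0.54). ID4 differed between BT549 and both others, by 1.58 from MDA231 (adjusted p = 5.1e-05). ID2 differed between MDA231 and both others, by 1.46 and 1.35. For BAMBI the difference between MDA231 and SUM159PT was called (1.42, adjusted p = 0.0017) and that from BT549 was not (0.89, SE 0.29, adjusted p = 0.053). As the mean of the 3 lines, ID1, ID2, ID3, BMP4 and BAMBI were called higher at 24 h, 5 of 9, where 26.5% of all genes were called and 7.24% were called higher.

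**Figure D3:**
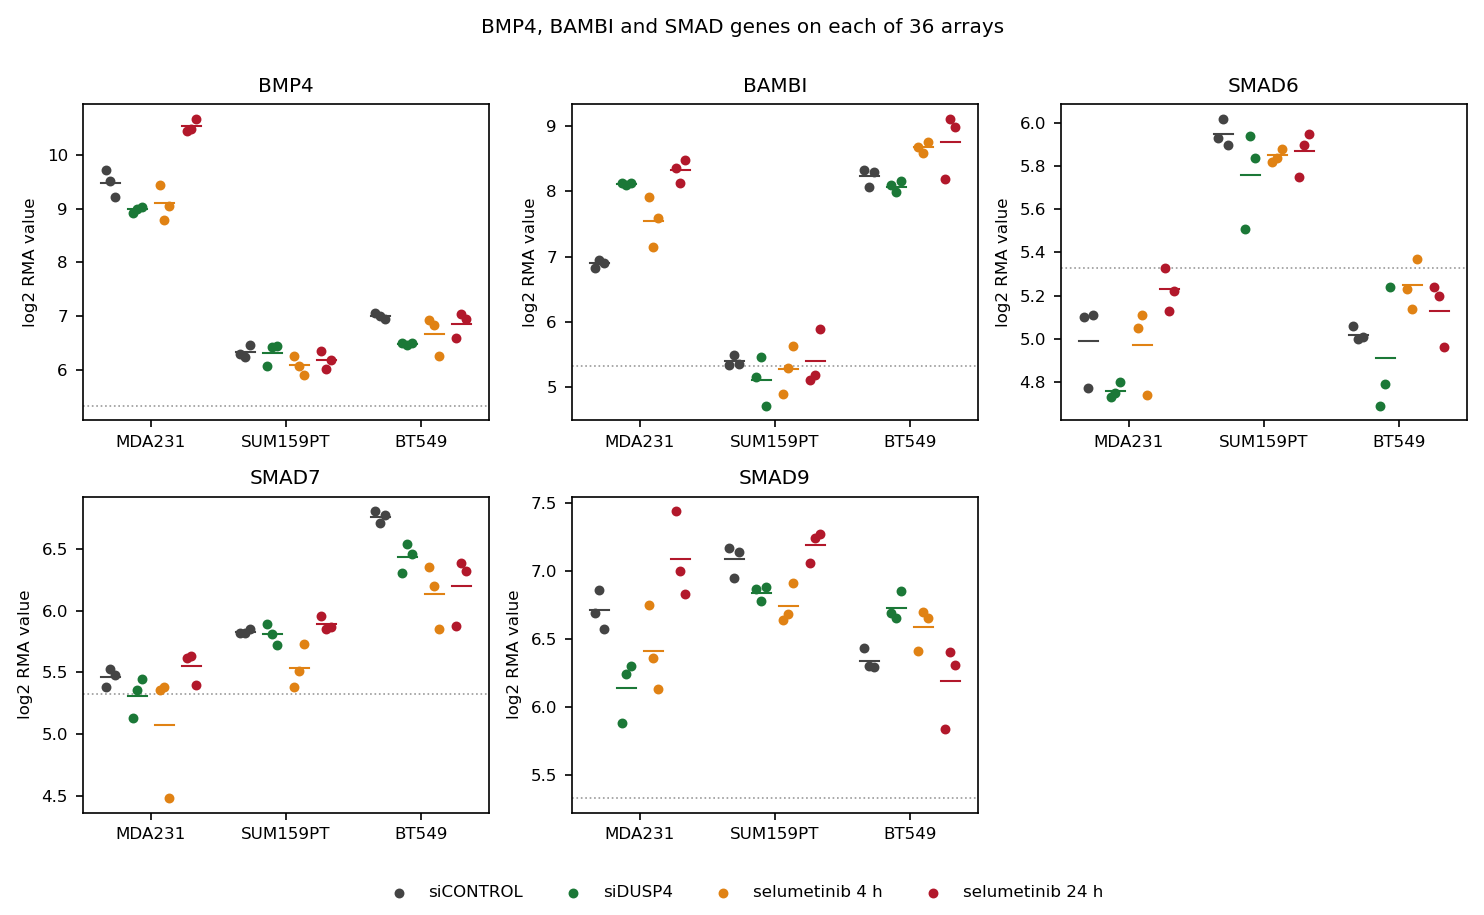
log2 RMA values of BMP4, BAMBI, SMAD6, SMAD7 and SMAD9 on each array, grouped by line and coloured by treatment; points are arrays, short bars are means of 3 and the dotted line is the median probe level of 5.33. BAMBI of MDA231 stands at 8.11 after siDUSP4 and 8.32 at 24 h of selumetinib, both above the siCONTROL mean of 6.90, and BMP4 of MDA231 is below siCONTROL after siDUSP4 and above it at 24 h.

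After siDUSP4, BAMBI and ID3 rose and SMAD9 and BMP4 fell in MDA231. These comparisons share the siCONTROL arrays with those of selumetinib. BAMBI was at 8.12, 8.09 and 8.12, against 6.83, 6.95 and 6.91, or 232% of siCONTROL (change 1.21, SE 0.21, adjusted p = 6.2e-05, limma). ID3 was at 6.35, 6.84 and 6.51, against 5.92, 6.11 and 6.01 (0.55, SE 0.17, adjusted p = 0.019, limma). SMAD9 was at 5.88, 6.24 and 6.30, against 6.69, 6.86 and 6.57 (-0.57, SE 0.15, adjusted p = 0.0068, limma). BMP4 had its 3 arrays between 8.93 and 9.04, against 9.72, 9.51 and 9.22 (-0.50, SE 0.16, adjusted p = 0.025, limma). ID2 was at 4.95, 4.72 and 4.43, above 4.04, 4.08 and 4.34 but not called (0.55, SE 0.21, adjusted p = 0.072). It was called on the arrays of the 2 groups alone (adjusted p = 0.016), with gene medians set equal (0.012), without the 3 low-quartile arrays (0.0052) and without siDUSP4 replicate C (0.047). Fitted on the MDA231 arrays alone, BAMBI was the 1 gene called, and ID3 (adjusted p = 0.092), SMAD9 (0.059) and BMP4 (0.064) were not. The ID3 call was also lost without siCONTROL replicate A or C or siDUSP4 replicate B, the SMAD9 call without siDUSP4 replicate A, and the BMP4 call without replicate A or B of either group.

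In BT549 ID4 and BMP4 fell after siDUSP4. ID4 was at 4.45, 4.77 and 4.61, more than a log2 unit below siCONTROL in mean (-1.15, SE 0.18, adjusted p = 2.1e-05, limma). Its siDUSP4 mean was below the median probe level and its siCONTROL mean above. BMP4 was at 6.49, 6.46 and 6.49, against 7.06, 7.00 and 6.94 (-0.52, SE 0.16, adjusted p = 0.024, limma). All BMP4 arrays were apart from siCONTROL, but the call was lost without siCONTROL replicate A or B, or any 1 of the siDUSP4 replicates (adjusted p from 0.059 to 0.071), and with gene medians set equal (-0.38, adjusted p = 0.055). SMAD9 was at 6.69, 6.65 and 6.85, above 6.43, 6.30 and 6.29, and was not called (0.39, SE 0.15, adjusted p = 0.084), although it was after the further quantile normalization (adjusted p = 0.0074). ID3 (-0.32), ID2 (-0.26) and SMAD7 (-0.33) had all siDUSP4 arrays below siCONTROL and ID1 (0.24) had all above, with no call. Without the 3 low-quartile arrays ID3, SMAD7 and SMAD9 were called too, so that 5 genes were, where 23.8% of all genes were called.

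In SUM159PT no member was called after siDUSP4. ID3 was the 1 of 9 with an unadjusted p under 0.05 in limma, where 13.4% of all genes had one. ID3 was at 7.47, 7.83 and 7.84, against 7.45, 7.36 and 7.29 (0.35, SE 0.17, adjusted p = 0.37). On the arrays of that line alone it was called (adjusted p = 0.046). The members called after siDUSP4 were thus 4 of 9 in MDA231, 0 in SUM159PT and 2 in BT549, where 17.6%, 2.83% and 14.2% of all genes were called. In the mean of the 3 lines BMP4 (-0.35, SE 0.09, adjusted p = 0.0063) and ID4 (-0.30, SE 0.10, adjusted p = 0.037, limma) were called lower, 2 of 9, where 18.7% of all genes were called.

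The siDUSP4 response differed between lines for ID3, ID4, SMAD9 and BAMBI by limma's F test, where 15.5% of all genes were called. BAMBI changed by 1.50 more in MDA231 than in SUM159PT (SE 0.29, adjusted p = 0.0011) and by 1.36 more than in BT549 (0.0016). ID4 changed by -1.15 in BT549, against 0.20 in SUM159PT and 0.05 in MDA231 (adjusted p of 0.00074 and 0.0011 for the differences). SMAD9 and ID3 differed between MDA231 and BT549, by -0.96 (SE 0.21, adjusted p = 0.0021) and 0.87 (SE 0.24, adjusted p = 0.012). BMP4 changed by -0.50 in MDA231 and -0.52 in BT549, a difference of 0.02 (SE 0.22, adjusted p = 0.98).

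Set out over all 12 groups, ID1 ranged from 8.53 in SUM159PT at 24 h to 11.06 in MDA231 at 24 h. ID2 ranged from 4.15 in MDA231 siCONTROL to 8.79 in BT549 at 4 h, and its order followed the lines, with all 4 MDA231 groups lowest and all 4 BT549 groups highest. BMP4 had the opposite order at the top, with all 4 MDA231 groups highest, up to 10.54 at 24 h. Neighbours in these orders were mostly not apart in their arrays. Of 11 neighbouring pairs, 5 did not overlap for ID2, 4 each for ID1, ID3 and BAMBI, 3 for SMAD7, 2 for BMP4, 1 each for SMAD6 and SMAD9 and 0 for ID4.

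With the mean of each line subtracted, ID2 and ID3 had a Pearson r of 0.83 over the 36 arrays, ID2 and BAMBI 0.77, ID1 and ID2 0.66, and ID1 and BMP4 0.66. SMAD7 stood apart from the ID genes, with r between -0.06 and 0.12. These arrays share treatments in sets of 3, and r is a description. Changes with treatment inside a line, such as that of ID3 in MDA231, enter it. Among 11344 genes with a mean above the median probe level, those most like ID3 by the same measure were PTGR1, EGLN3, SLC29A3, BCL3 and PDE7B, each with r of 0.87. Their 24 h differences ran from 1.16 (BCL3) to 3.06 (PDE7B) in MDA231. In the other lines they ran from -0.31 (PDE7B) to 0.26 (BCL3), both in BT549. The genes most like ID1 were PSMB9 (0.88), IKBKE (0.87), SGSH (0.84), COMMD1 (0.84) and SLC50A1 (0.83).

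Another 60 genes of the pathway were listed by role, of which 57 were measured. In the mean of the 3 lines, 2 were called higher and 12 lower after siDUSP4 (24.6% of the 57, against 18.7% of all genes), 2 higher and 10 lower at 4 h (21.1%, against 13.8%), and 5 higher and 12 lower at 24 h (29.8%, against 26.5%). The median change at 24 h was -0.03, and over all genes -0.01. At 24 h 26 of the 57 were called with gene medians set equal on all arrays, where 34.9% of all genes were. After siDUSP4 26 were called without the 3 low-quartile arrays, where 28.6% of all genes were. At 4 h 24 were called without replicate A of MDA231, where 30.6% of all genes were. Without the 3 low-quartile arrays NOG, SKI and GREM1, given below, were not called at 4 h (adjusted p of 0.11, 0.22 and 0.17), nor BMP8B at 24 h (0.055).

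Among 12 other ligands measured, 4 fell at 24 h in the mean and none rose, so 33.3% were called, where 26.5% of all genes were. BMP2, a ligand close to BMP4 in sequence, was -0.69 at 4 h (SE 0.12, adjusted p = 8.9e-05) and -0.53 at 24 h (adjusted p = 0.00075, limma). BMP6 was -0.47 at 24 h (adjusted p = 2.2e-05), with -0.83 in BT549 and -0.42 in MDA231. BMP3 was -0.34 at 24 h (adjusted p = 0.00061), and BMP7 was called only after siDUSP4 (-0.26, adjusted p = 0.038, limma). BMP8B (-0.36, adjusted p = 0.04) made up the 4 and is named here after its values were seen, as are CHRDL2, GREM1 and TOB1 below. The BMP3 signal was low, below the median probe level in all 12 groups. In siCONTROL, BMP2 was below that level in SUM159PT and BT549, BMP6 in SUM159PT, and BMP7 in MDA231 and SUM159PT.

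Of 6 receptors, BMPR2, the type II receptor of most BMPs, was called higher at 24 h (0.16 in the mean, adjusted p = 0.047), with 0.45 in MDA231 (adjusted p = 0.0016, limma). It was lower there after siDUSP4 (-0.35, adjusted p = 0.016). ACVR1, a type I receptor, was lower at 4 h (-0.32, adjusted p = 0.003, limma). Among 5 co-receptors, RGMB fell in MDA231 from 9.73, 9.82 and 9.89 to 8.47, 8.18 and 8.32 at 24 h (-1.49, SE 0.17, adjusted p = 5.3e-08, limma). TGFBR3 rose there at 24 h (0.58, adjusted p = 0.00066), and ENG fell in BT549 after siDUSP4 (-0.62, adjusted p = 1.6e-05). SMAD4, the partner of all receptor-activated SMADs, fell after siDUSP4 in MDA231 (-0.41, adjusted p = 0.00014) and BT549 (-0.30, adjusted p = 0.006, limma).

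Of 12 secreted antagonists, 2 were lower and 1 higher at 24 h in the mean, so 25% were called, where 26.5% of all genes were. FST, which binds activins and some BMPs, was -0.49 (adjusted p = 0.00046), and BMPER, which binds BMPs outside the cell, was -0.41 (adjusted p = 0.00027, limma). NOG, which encodes the BMP trap noggin, was -0.53 at 4 h (adjusted p = 0.0035). The 1 antagonist higher at 24 h was CHRDL2 (0.18, adjusted p = 0.017). The 2 pathway genes higher at 4 h were the antagonist GREM1 (0.21, adjusted p = 0.04) and the intracellular regulator TOB1 (0.20, adjusted p = 0.025). In siCONTROL, CHRDL2 and GREM1 were below the median probe level in every line, NOG in BT549, and FST and BMPER in SUM159PT. CHRDL1, a chordin-like antagonist, fell after siDUSP4 by 1.34 on the log2 scale in BT549 (adjusted p = 3.4e-07). Among 8 intracellular regulators, none rose and 3 fell at 24 h in the mean, so 37.5% were called, where 26.5% of all genes were. SMURF2, a ubiquitin ligase for SMADs and receptors, fell at 4 h in all 3 lines, by 0.58 in MDA231, 0.37 in SUM159PT and 0.40 in BT549 (adjusted p of 8.7e-05, 0.021 and 0.035, limma). SKIL, a nuclear repressor of SMADs, was -0.53 at 4 h and -0.40 at 24 h in the mean (adjusted p of 0.00014 and 0.0012), and SKI, its relative, was -0.22 at 4 h (adjusted p = 0.024). PPM1A, a phosphatase of SMADs, was -0.20 at 24 h (adjusted p = 0.0038).

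Of 8 other BMP-responsive genes, 2 rose and 2 fell at 24 h in the mean, so 50% were called, where 26.5% of all genes were. ATOH8, a bHLH factor gene induced by BMP in several cell types, was at 7.90, 7.66 and 7.60 in MDA231 at 24 h, against 5.88, 5.76 and 5.81 in siCONTROL (1.91, SE 0.17, adjusted p = 1.6e-10, limma). It also rose in SUM159PT, from 7.16, 7.24 and 7.31 to 8.04, 7.94 and 7.75 (0.67, SE 0.17, adjusted p = 0.015), and had a change of 0.08 in BT549, which was not called. RUNX2, an osteoblast factor gene, rose at 24 h in MDA231 from 8.15, 8.06 and 8.23 to 9.68, 9.71 and 9.72 (1.55, SE 0.16, adjusted p = 9.8e-09) and fell there after siDUSP4 (-0.83, adjusted p = 0.00035). HES1, a bHLH repressor gene also driven by Notch, moved opposite ways in the mean, 0.63 after siDUSP4 (adjusted p = 4.9e-07) and -0.80 at 24 h (adjusted p = 4.9e-09, limma). HEY1 was -0.93 at 24 h in MDA231 (adjusted p = 1.7e-07), to a mean of 4.83, below the median probe level. In BT549, where its siCONTROL mean was 9.30, the 24 h change was -0.16 and not called (adjusted p = 0.33, limma). Of the 3 E protein genes that ID proteins pair with, none was called at 24 h in the mean, where 26.5% of all genes were. After siDUSP4 TCF3 (-0.26, adjusted p = 0.0059) and TCF12 (-0.24, adjusted p = 0.0012) were lower and TCF4 (0.24, adjusted p = 0.0061) was higher, where 18.7% of all genes were called.

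**Figure D4:**
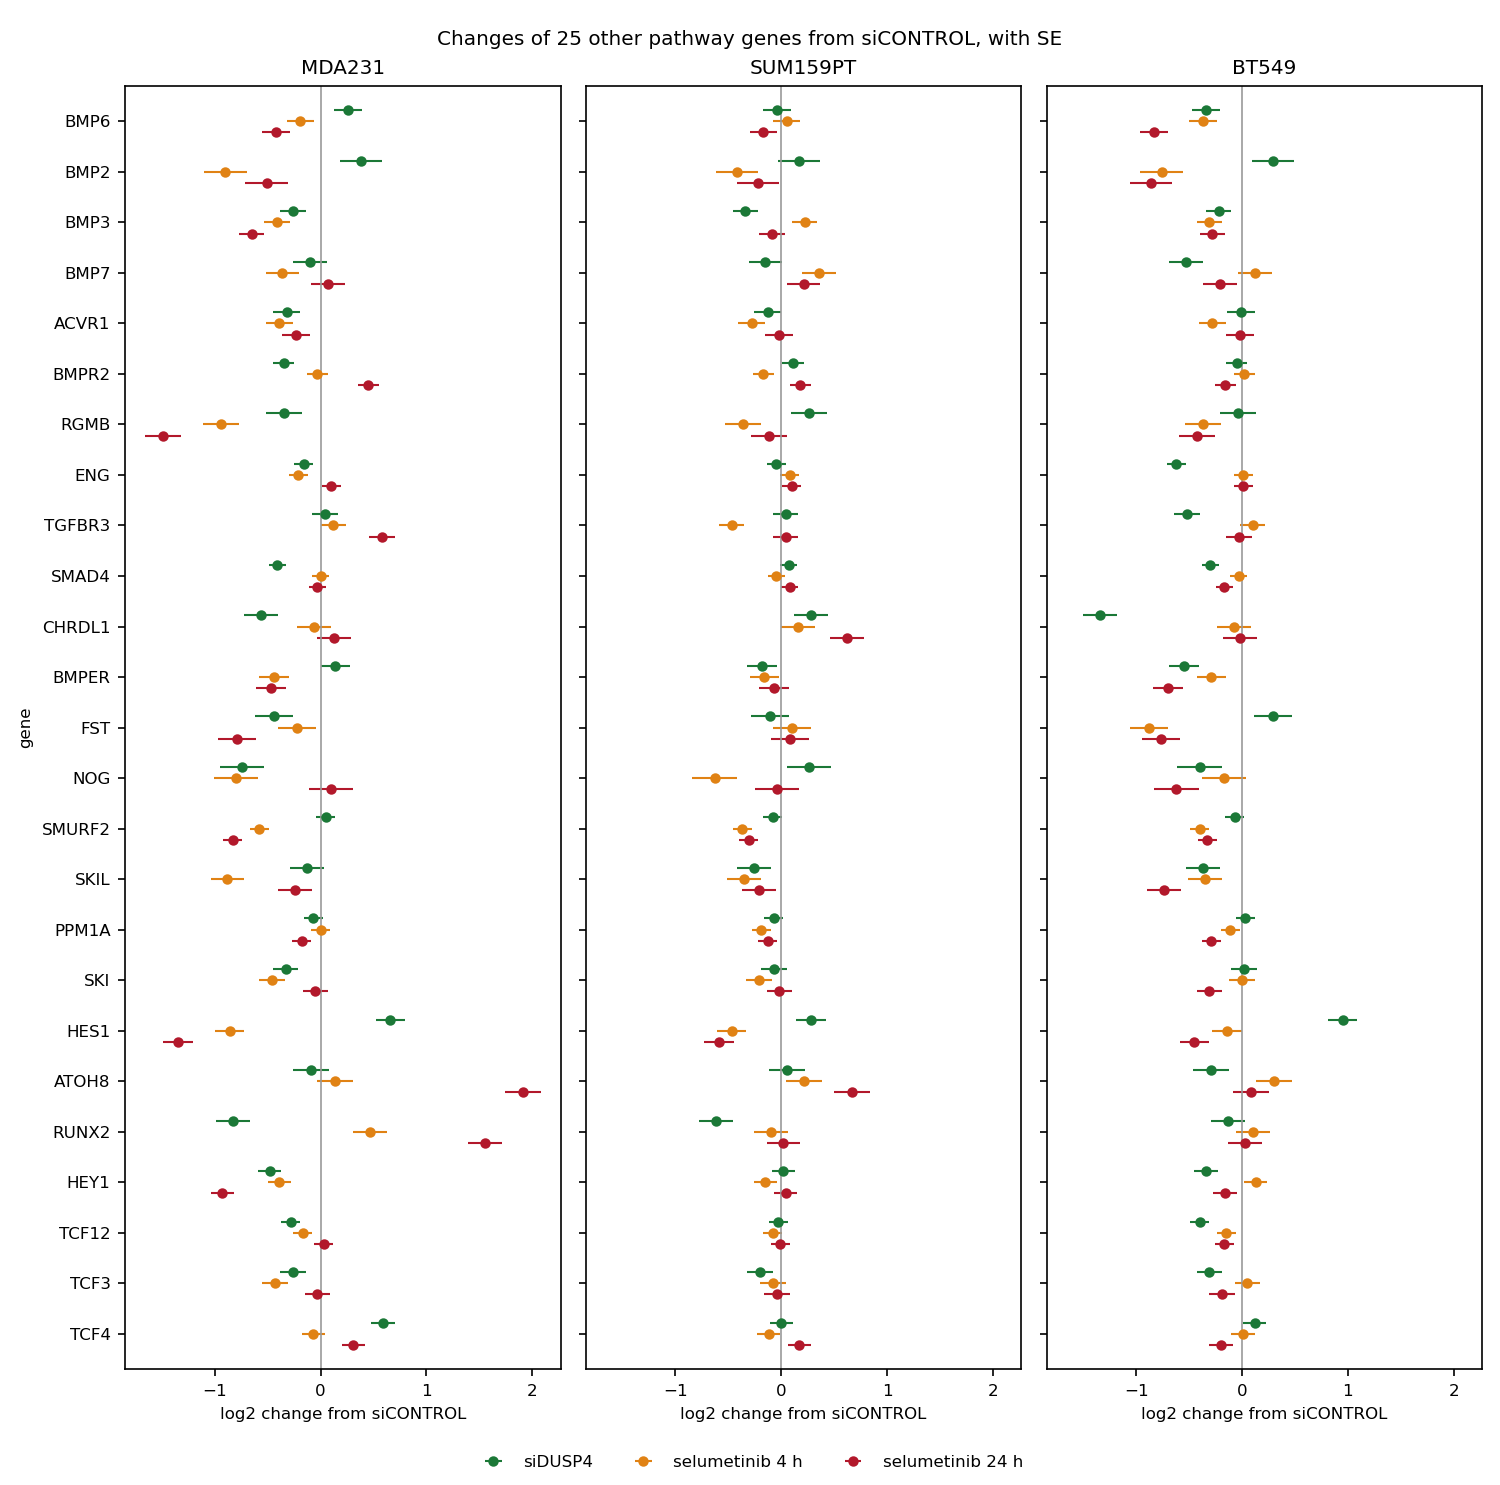
log2 change from siCONTROL of 25 other pathway genes in each line, by treatment, ordered by role from ligands at the top to E proteins at the bottom; points are differences of means of 3 arrays and bars are 1 SE. ATOH8 and RUNX2 of MDA231 at 24 h lie farthest to the right, at 1.91 and 1.55, and RGMB and HES1 farthest to the left in that group, at -1.49 and -1.35.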

How the data were processed

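Total RNA was labelled and hybridised to Affymetrix gene arrays, and the values used are the authors' deposited log2 levels of 33297 probes on 36 arrays, which the submitters' processing notes credit to Affymetrix Expression Console 1.1 and RMA. No genome build of the array is given in the sources used here. Groups follow the sample titles. Of the probes 19181 had 1 gene symbol, 2055 had several and 12061 had none; the first kind gave 17958 genes, the probe of highest mean being kept for 895 genes with several probes. The 12 group means were fitted together by limma 3.58.1 (lmFit, then eBayes, with 24 residual degrees of freedom; R 4.3.3), p-values being adjusted by Benjamini-Hochberg over all genes. No filter on low values was applied. Precision is limited by having 3 arrays per group.

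The members and gene lists were chosen with earlier results of these data known. Members have no test at 4 h or at 24 h against 4 h. Named beside the members are the genes of each other list called in the mean of the 3 lines in at least 1 treatment, up to 4 per list by smallest adjusted p, the 5 genes most correlated with ID1 and with ID3 (unnamed loci passed over), and DUSP4 and DUSP6. Alternatives were fits on fewer arrays, other scalings, a filter on dim genes, the mean of all probes, a variance trend and leaving out each array.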

Additional observations from a re-analysis of the deposited data

Results flagged for a closer look

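The change after a treatment differed between lines for the following genes, by limma's F test of the line differences with Benjamini-Hochberg adjustment over all genes; the size given is the widest gap between 2 lines on the log2 scale. At 24 h of selumetinib ID3 changed by 2.78 in MDA231 and 0.07 in BT549, a gap of 2.71 (adjusted p = 5.6e-10). ID4 moved opposite ways, 0.74 in MDA231 and -0.84 in BT549, a gap of 1.58 (adjusted p = 9.6e-05). ID2 had a gap of 1.46 between MDA231 and SUM159PT (adjusted p = 0.001), BAMBI 1.42 between the same lines (0.0036), ID1 1.26 (4.1e-05), and BMP4 1.20 between MDA231 and BT549 (0.0002).

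After siDUSP4 BAMBI had a gap of 1.50 between MDA231 (1.21) and SUM159PT (-0.29; adjusted p = 0.00054). ID4 had a gap of 1.34 between SUM159PT and BT549 (adjusted p = 0.00032), SMAD9 0.96 between BT549 (0.39) and MDA231 (-0.57; 0.005), and ID3 0.87 between MDA231 and BT549 (0.022).

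For 3 genes at 4 h, all arrays of 1 line lay above that line's siCONTROL mean and all arrays of another lay below its own, although some of them overlapped single siCONTROL arrays; these differences were not tested. The share of all genes that met this rule was not counted, so the 3 cannot be set against it. ID1 was 0.76 in BT549 and -0.64 in MDA231, a gap of 1.40, and the MDA231 value was -0.16 without the low-quartile replicates B and C. SMAD9 was 0.25 in BT549 and -0.34 in SUM159PT, a gap of 0.59, and SMAD6 was 0.22 and -0.10 in the same lines, a gap of 0.32.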

How the results depend on the processing

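No change of a member that was called turned direction under the alternatives run. The 6 members called at 24 h in MDA231 became 6 to 7 as single arrays were left out. Counts of members called that moved by over 1.5 times are these. The share of all genes called in the same fit is given here or further up where it was counted. The other counts cannot be set against all genes. On the arrays of the line alone they were 1 after siDUSP4 in MDA231, 1 after siDUSP4 in SUM159PT and 2 at 24 h in SUM159PT. On the arrays of the 2 groups alone they were 3 at 24 h in SUM159PT, 4 after siDUSP4 in BT549 and 0 at 24 h in BT549, where ID1 had an adjusted p of 0.13; these fits rest on fewer arrays. Quantile normalization repeated gave 4 after siDUSP4 in the mean of lines and 1 at 24 h in SUM159PT, and gene medians aligned, an alternative chosen after seeing the data, gave 4 and 1 as well, with 26 other pathway genes at 24 h. The filter on dim genes, which kept 7 members, gave 1 after siDUSP4 in BT549 and 1 in the mean. Without the 3 arrays of low upper quartile there were 5 in BT549, 6 in the mean and 26 other pathway genes after siDUSP4, and 2 in SUM159PT and 5 in BT549 at 24 h. In that fit 23.8% of all genes were called in BT549 and 28.6% in the mean after siDUSP4, and 8.93% in BT549 at 24 h. As single arrays were left out the counts ran from 2 to 5 after siDUSP4 in MDA231, 1 to 2 in BT549 and 1 to 2 in the mean, and from 9 to 24 for other pathway genes at 4 h. The cause was not tested.

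With gene medians aligned, the median over all genes went from 0.01 to 0.15 after siDUSP4 in BT549, from -0.13 to 0.05 at 4 h in MDA231, from -0.01 to 0.13 at 4 h in SUM159PT and from -0.09 to 0.17 at 24 h in BT549; SMAD6 at 4 h in MDA231 then went from -0.03 to 0.15. Deviations of arrays with the same replicate letter had a mean correlation of 0.01 over 54 pairs, of which 12 were over 0.1. By line the mean was -0.02 in MDA231, 0.07 in SUM159PT and -0.03 in BT549, with 4, 7 and 1 of 18 pairs over 0.1. Whether the letters pair the samples is not settled by these values. With the replicate block fitted, none of the 27 pairs of member and line went from called to not called or back at 24 h. The same held for the 27 after siDUSP4, and 6 members were called at 24 h in MDA231.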
